A study of Arabidopsis thaliana with 12 samples.

Results

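Seedlings of the Arabidopsis thaliana mutant prmt5-5 were compared with wild type (WT), using all 4 prmt5-5 and all 4 WT libraries out of the 12 libraries of the series. The series' other 4 libraries come from the mutant pICln-1. Both prmt5-5 and WT seedlings grew at 22 °C for 10 days with 12 h of light and 12 h of dark, a light regime the labels also give as a treatment of 9 days, and polyadenylated RNA was sequenced. The series' design line names cold treatment of pICln-1 and WT, which no label of these libraries records. The labels name the prmt5-5 allele without saying how it was made, and prmt5-5 is a single line, so effects of the mutation and of anything else that sets this line apart cannot be told apart. Whether the 4 libraries of each genotype were grown separately is not said, so the authors' p-values may measure technical spread only. The authors deposited their own calls for this pair of genotypes: 1531 genes listed for a change of expression and 3406 bins listed for a change of usage. Bins are the pieces into which annotated exon borders divide a gene, and most of those listed are introns. No value per library and no standard error was used here, and depth is unknown, so each value below is a pooled value or a fitted change of the authors without an SD.

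PRMT5 encodes a protein arginine methyltransferase, which places symmetric dimethyl marks on arginines of histones and of Sm proteins. Sm proteins form the core of the small nuclear ribonucleoproteins, the RNA-protein particles of the spliceosome, and the U1 particle among them pairs with the 5' splice site at the start of an intron. Plants lacking PRMT5 are known for defects of pre-mRNA splicing, late flowering and altered circadian rhythms.

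The mutated gene itself was read first. PRMT5 (AT4G31120, RefSeq symbol SKB1) was not listed for expression, while 1 of its 22 introns was listed for retention. Intron 20 was kept in 81.0% of junction reads in prmt5-5 and in 0% in WT, from the authors' deposited table (adjusted p = 1.22e-26). In pICln-1 it was at 0.870%. This intron lies in the mutated gene, and the site of the lesion is not given. An effect of the lesion on this intron and one of PRMT5 loss on splicing therefore cannot be told apart. The 3 introns below show what such a retained intron adds to a transcript. They are the whole introns of CCD1, a gene of carotenoid cleavage, of PRMT5, and of the actin-related protein gene ARP9, read from the RefSeq copy of the genome in the direction of transcription. Any change that the prmt5-5 line carries in PRMT5 is not shown. Capitals mark the first stop codon in the reading frame that runs on from the exon before.
CCD1 intron 1 of 13, TAIR10 chr3:23453156-23453236, plus strand: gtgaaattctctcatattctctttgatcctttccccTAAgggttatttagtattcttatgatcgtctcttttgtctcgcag
PRMT5 intron 20 of 22, TAIR10 chr4:15132630-15132724, minus strand: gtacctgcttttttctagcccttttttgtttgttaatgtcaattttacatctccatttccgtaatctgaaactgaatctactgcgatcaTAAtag
ARP9 intron 11 of 17, TAIR10 chr5:17472110-17472184, plus strand: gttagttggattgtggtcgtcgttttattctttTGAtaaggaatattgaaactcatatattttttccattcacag
The stop codon begins at base 37 of 81 in CCD1, at base 90 of 95 in PRMT5 and at base 34 of 75 in ARP9. In all 3 genes translation of the unspliced transcript would therefore end inside the intron.

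Intron retention was the most frequent change of bin usage in prmt5-5. Of 118209 bins tested, 2.88% were listed, and 3362 of the 3406 listed bins were introns. In prmt5-5, 3317 introns were retained more than in WT and 45 less, going by the pooled shares in the authors' deposited table. For 5 of them, 1 of the more retained and 4 of the less retained, the fitted change of bin usage in the authors' deposited table has the opposite sign. Bins were listed only at a change above 5 percentage points, so an intron below 5% in WT could be listed only as a rise. The median retained share of the 3317 introns was 15.0% in prmt5-5 and 2.44% in WT by the authors' deposited table, and the median rise was 11.7 percentage points. The rise reached 20 points in 759 introns and 40 points in 169. The retained form took over 50% of junction reads for 215 of these introns in prmt5-5, and WT was also above 50% in 10 of the 215. The plot of both genotypes shows that most listed introns were nearly fully spliced in WT.

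**Figure D1:**
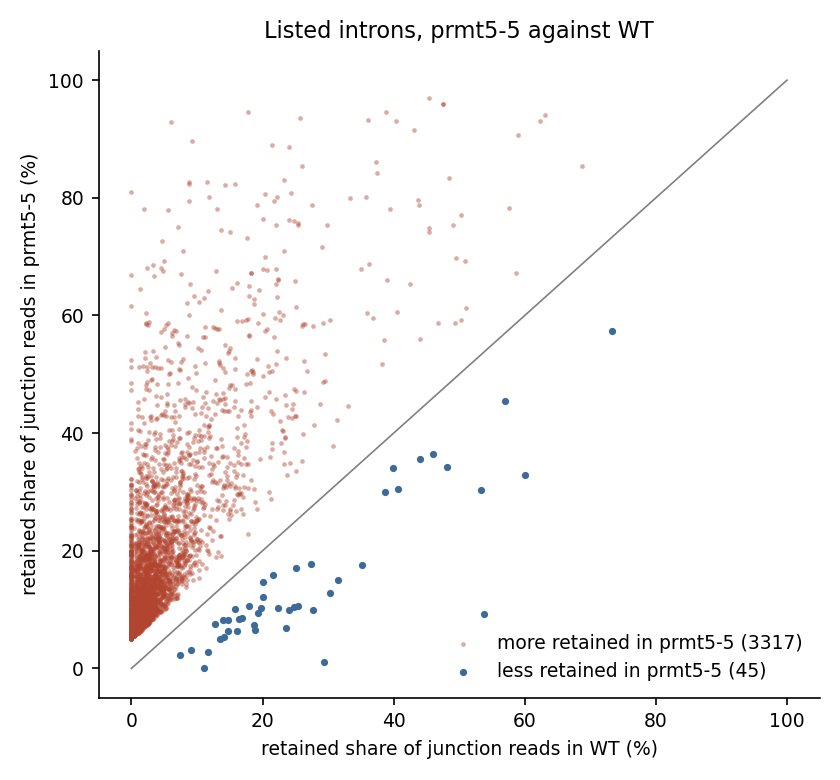
Each point is a listed intron, with the share of junction reads that retain it in WT on the x axis and in prmt5-5 on the y axis, both in percent and pooled by the authors. The 3317 introns above the line were retained more in prmt5-5 and the 45 below it less.

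The 10 introns with the largest rises lie in genes annotated with different functions. CCD1 intron 1 stood at 92.8% in prmt5-5 and 6.08% in WT, per the authors' deposited table, and PRMT5 intron 20 came next. TGA9 encodes a bZIP transcription factor of anther development. Its intron 4 of 12 was retained at 94.6% in prmt5-5 and 17.8% in WT by the authors' deposited table. AT2G25760 encodes a protein kinase, and its intron 5 of 15 was at 89.7% in prmt5-5 and 9.21% in WT, per the authors' deposited table. Intron 1 of 11 of AT2G17320, annotated as a pantothenate kinase of coenzyme A synthesis, had 82.4% in prmt5-5 and 8.81% in WT by the authors' deposited table. Intron 1 of 7 of GLX2-1, annotated as a glyoxalase, had 77.9% in prmt5-5 and 5.56% in WT in the same authors' deposited table. ARP9 intron 11, printed above, had 82.7% in prmt5-5 and 11.6% in WT, from the authors' deposited table. The other 3 are intron 2 of the ubiquitin-like gene AT5G25270 (78.1% in prmt5-5 and 1.91% in WT), intron 4 of AT4G03820, a putative transmembrane protein (82.6% and 8.77%), and intron 1 of AT1G76020, a thioredoxin superfamily gene (79.4% and 8.72%), from the authors' deposited table. All 10 lie in coding sequence and all 10 bring an in-frame stop. In pICln-1, which the authors compared with the same WT libraries, these 10 introns ranged between 0.870% and 41.3% in the authors' deposited table. The lowest was PRMT5 intron 20, and the next was AT4G03820 intron 4 at 6.90%.

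The 5' splice sites of these 10 introns are shown because the more retained introns, taken as a whole set, differed there from the other introns of their genes. Each line gives the last 3 exon bases and the first 6 intron bases of the reference genome. Capitals mark bases that differ from the most common base at that position among 123435 annotated introns, those of the first annotated transcript of each locus.
Most common base at each position: aaggtaagt
CCD1 intron 1, TAIR10 chr3:23453153-23453161, plus strand: CCCgtGaAA
PRMT5 intron 20, TAIR10 chr4:15132719-15132727, minus strand: aTggtaCCt
AT2G25760 intron 5, TAIR10 chr2:10987569-10987577, minus strand: GGCgtaaAC
TGA9 intron 4, TAIR10 chr1:2626184-2626192, minus strand: aCTgtaCCC
AT5G25270 intron 2, TAIR10 chr5:8761877-8761885, minus strand: TGTgtaTgA
AT4G03820 intron 4, TAIR10 chr4:1772219-1772227, minus strand: TCAgtaaTt
AT2G17320 intron 1, TAIR10 chr2:7535719-7535727, minus strand: CaAgtTCCt
GLX2-1 intron 1, TAIR10 chr2:18037996-18038004, minus strand: aGggtTTAA
ARP9 intron 11, TAIR10 chr5:17472107-17472115, plus strand: aGAgtTagt
AT1G76020 intron 1, TAIR10 chr1:28533286-28533294, minus strand: aCCgtCagt
CCD1 differs at 6 of the 9 positions and PRMT5 at 3. Among the other introns of the gene, the median is 3 positions in CCD1, in PRMT5 and in ARP9. Not every site shown therefore differs at more positions than its neighbours. Positions are counted outward from the exon-intron boundary, and the most common base is G both at the last exon position and at intron position 5. None of the 10 sites has G at both positions, and 5 have it at neither, those of CCD1, AT2G25760, TGA9, AT4G03820 and AT2G17320.

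Across all retained introns the same positions set the listed introns apart, in steps with the size of the rise. G was absent from both positions in 18.2% of the 3311 more retained introns that match an annotated intron, against 3.26% of the 20582 other introns of the same genes and 5.01% of all annotated introns. By the size of the rise this share was 11.7% at 5 to 10 points, 16.4% at 10 to 20 points, 27.3% at 20 to 40 points and 50.9% at 40 points or more. G stood at both positions in 15.7% of the more retained introns and in 34.2% of the other introns of the same genes. At 40 points or more that share was 2.96%. Of the 44 matched introns retained less in prmt5-5, 4.55% lacked G at both positions. Other positions of the site differed too. A stood at the exon position before the last in 45.9% of the more retained introns. In the other introns of the same genes it stood there in 66.3%. At intron position 3, T stood in 34.3% and 15.5%. In introns that rose by 40 points or more, these shares were 25.4% for A and 27.8% for T. Introns of a gene share their base composition, so these shares are given as a description, with no test. The other introns of the same genes and all annotated introns are those of the first annotated transcript of each locus. The more retained introns were matched to introns of every annotated transcript, and the effect of this difference was not tested.

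**Figure D2:**
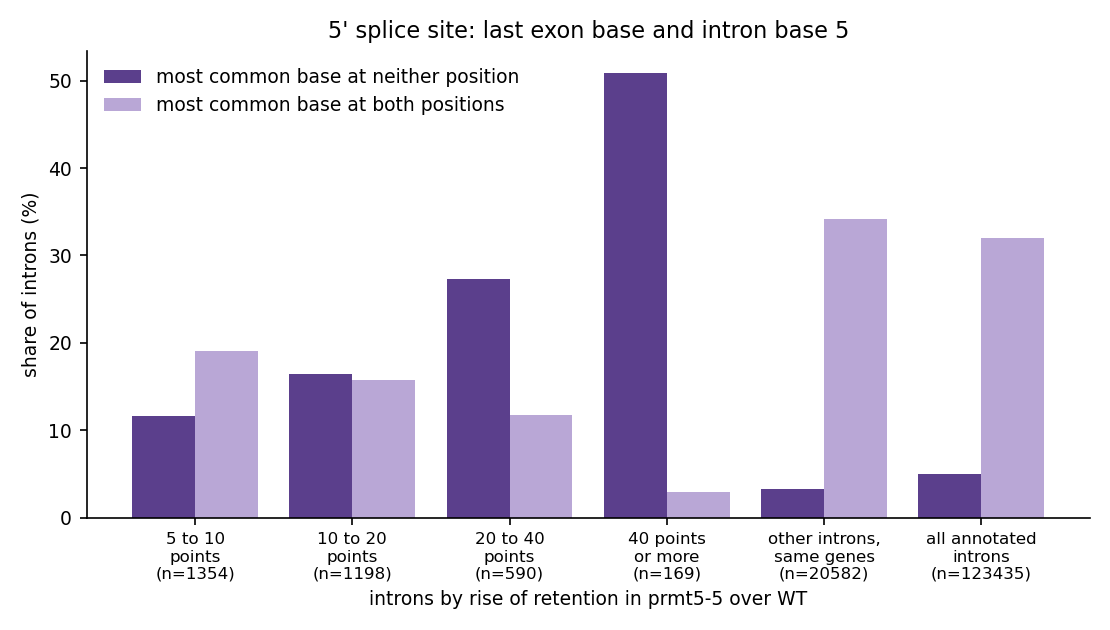
Bars give the share of introns, in percent, with the most common base at neither (dark) or both (light) of the last exon position and intron position 5, for more retained introns by rise in prmt5-5 over WT and for other introns. The dark bars reach 50.9% at rises of 40 points or more, against 3.26% for other introns of the same genes.

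The retained introns lay closer to their neighbours in length, GC content, place in the coding sequence, reading frame and 3' splice site. Their median length was 110 bases, against 100 bases for the other introns of the same genes, and their median GC content was 33.0% against 33.3%. In the coding sequence lay 95.1% of the more retained introns and 96.3% of the others. Of those in coding sequence, 33.1% had a length divisible by 3 against 32.9%, and 91.1% held an in-frame stop codon if kept against 89.0%. An open frame through the intron, with a length divisible by 3 and no stop, was left by 75 more retained introns (2.38%, against 2.95% of the others). First introns made up 18.2% of the more retained introns and 29.0% of those that rose by 40 points or more, against 9.58% of the other introns of the same genes and 19.5% of all annotated introns. The 3' splice site ended in CAG in 65.7% of the more retained introns and in 67.4% of the others.

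Many genes held more than 1 listed intron. In prmt5-5, 2559 genes held at least 1 more retained intron, among them 11.5% of the protein-coding loci with an annotated intron. Of these genes 1992 held 1 such intron, 442 held 2 and 125 held 3 or more. The 567 genes with 2 or more make up 3.26% of the protein-coding loci with 2 or more annotated introns. Genes with 1 listed intron had a median of 7 annotated introns, those with 2 had 10 and those with 3 or more had 12. The number of introns that could be listed therefore differs between these genes, and its part in the counts was not tested. Within the genes with 3 or more listed introns, 13.2% of the 441 listed introns lacked G at both 5' splice site positions, against 3.38% of the 1301 other introns of the same genes.

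The gene with the most listed introns was BGLU8 (AT3G62750), of the beta-glucosidase family, with 8 of its 12 introns. They form an unbroken run of introns 3 to 10. Intron 8 was at 58.2% in prmt5-5 and 27.6% in WT, and intron 9 at 40.2% in prmt5-5 and 11.7% in WT, per the authors' deposited table. The other 6 lay between 10.2% and 17.7% in prmt5-5 and between 1.64% and 10.3% in WT by the authors' deposited table. BGLU8 has close relatives in its family, so its reads may be shared between copies. AT3G56160, a sodium and bile acid symporter family gene, held 7 of 13 listed introns, led by intron 6 at 50.6% in prmt5-5 and 2.37% in WT, per the authors' deposited table. DFD (AT3G55630), which encodes a folylpolyglutamate synthetase that adds glutamate to folates, also held 7, of 14 introns. Its intron 2 had 38.6% in prmt5-5 and 10.1% in WT by the authors' deposited table.

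FC2 (AT4G24740) encodes a LAMMER-type protein kinase, a class that phosphorylates splicing factors, and 6 of its 11 introns were listed. Introns 2 and 6 had 50% and 46.6% in prmt5-5, against 17.6% and 13.0% in WT, per the authors' deposited table. NDL1 (AT5G56750), an N-MYC downregulated-like gene, held 6 of 9 listed introns. Intron 9 reached 34.6% in prmt5-5 against 5.26% in WT, and the other 5 lay between 6.55% and 14.7% in prmt5-5 and between 0% and 3.16% in WT by the authors' deposited table. Of the 13 genes with 5 listed introns, ties were ordered by the summed rise of those introns, and the first 5 were AT4G02120, a CTP synthase gene (intron 8 at 59.4% in prmt5-5 and 17.8% in WT), AT1G50140, a P-loop nucleoside triphosphate hydrolase gene (intron 21 at 45.8% and 1.89%), and SAC8, a gene of the SAC domain phosphatases (intron 11 at 32.1% and 1.61%), from the authors' deposited table. AT1G08910, annotated as zinc ion binding, had 37.7% in prmt5-5 and 3.61% in WT at intron 8, and the lipase-like gene AT4G10050 had 39.0% and 6.33% at intron 5, again from the authors' deposited table. The neighbour of AT4G10050 on the chromosome, the glucosylceramidase-type gene AT4G10060, is among those 13 and was picked out after its values were seen.

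**Figure D3:**
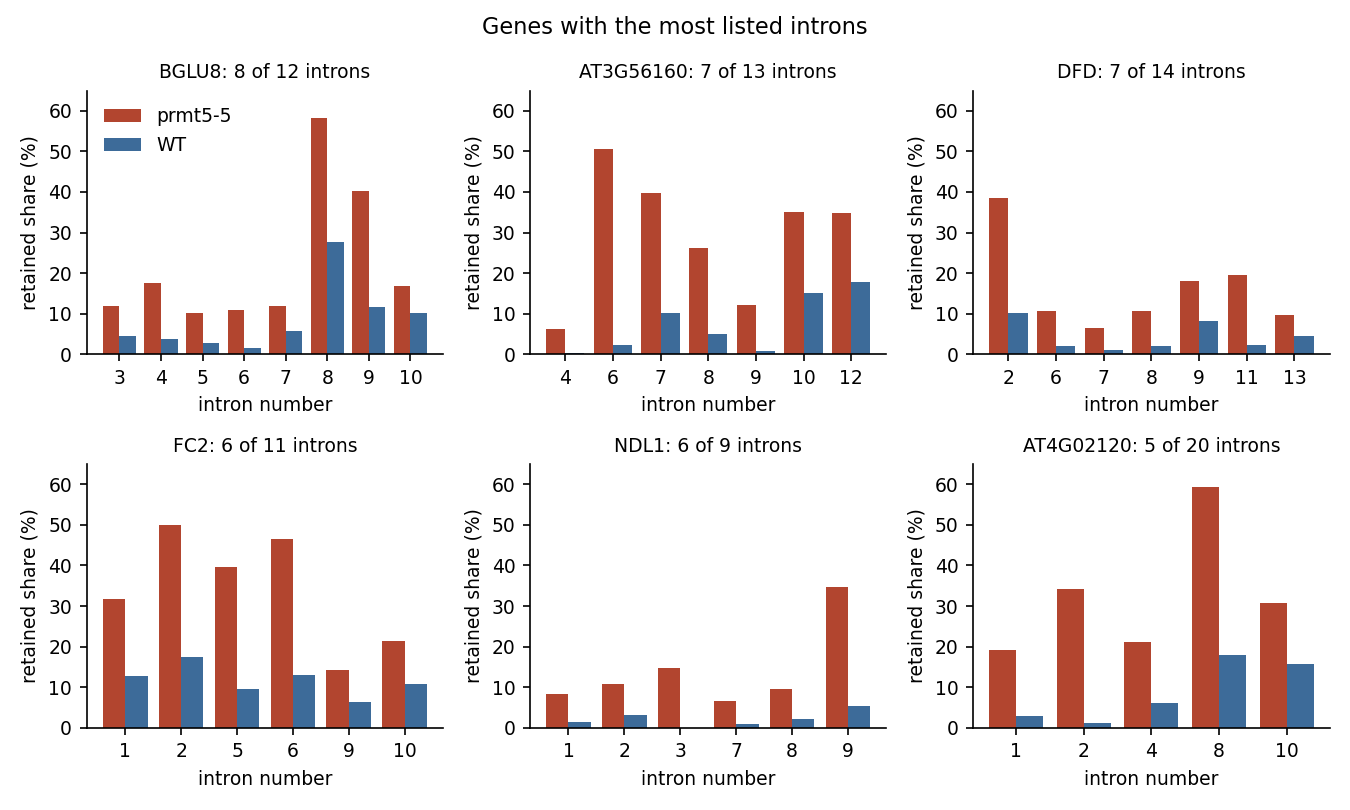
Bars give the retained share of junction reads in percent, pooled by the authors, in prmt5-5 (red) and WT (blue) for each more retained intron of the 6 genes with the most such introns (ties by summed rise), by intron number. Every intron shown is higher in prmt5-5, with rises that differ between introns of the same gene, as in BGLU8, where introns 8 and 9 exceed the other 6.

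Among the genes with 4 listed introns were several of metabolism and signalling, named here after their values were seen. RPP4, a disease resistance gene of the TIR-NBS-LRR class, had 4 of 5 introns listed, between 65.8% and 84.1% in prmt5-5 and between 24.9% and 37.5% in WT, per the authors' deposited table. RPP4 sits in a cluster of similar genes, so its reads may be shared with other copies. SBE2.1, a starch branching enzyme gene, had 52.6% in prmt5-5 and 19.2% in WT at intron 7, while its other 3 listed introns lay between 6.02% and 7.26% in prmt5-5 and between 0.168% and 1.29% in WT by the authors' deposited table. CBL10, a calcium sensor gene, had 41.0% in prmt5-5 and 11.6% in WT at intron 5 in the authors' deposited table. HEMG2, a protoporphyrinogen oxidase gene of the chlorophyll and haem pathway, had 29.0% in prmt5-5 and 8.11% in WT at intron 8 in the authors' deposited table. FUM2, the cytosolic fumarase gene, had 25.8% in prmt5-5 and 8.41% in WT at intron 5 in the authors' deposited table. VPS25 of the ESCRT complex, VPS35A of the retromer and the SUMO ligase gene SIZ1 also held 4 each, with at most 13.7% retained in prmt5-5 in the authors' deposited table.

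Few introns were retained less in prmt5-5. The largest falls in the authors' deposited table were in the histone methyltransferase gene SDG25, where an intron bin with no annotated match had 9.30% in prmt5-5 and 53.8% in WT, and in intron 8 of AT1G29030, annotated as an apoptosis inhibitory protein, at 1.1% in prmt5-5 and 29.4% in WT. Intron 2 of the kinase gene NEK2 (33.0% in prmt5-5 and 60.0% in WT, with a usage change of the opposite sign at 2.22 on the log2 scale), intron 4 of the U2 auxiliary factor gene AT1G60900 (30.3% and 53.3%) and intron 3 of the ubiquitin ligase gene PUB4 (9.89% and 27.7%) followed in the authors' deposited table. The authors' adjusted p was 0.0554 for SDG25, 0.0571 for AT1G29030, 0.00115 for NEK2, 0.101 for AT1G60900 and 0.0129 for PUB4. Of the 45 introns retained less, 25 lie in genes that also hold a more retained intron. In the kinesin gene KICP-02, chosen after its values were seen, intron 22 was at 89.0% in prmt5-5 and 21.5% in WT, whereas intron 2 was at 10.5% in prmt5-5 and 25.3% in WT, from the authors' deposited table. The authors' adjusted p was 1.29e-09 for intron 22 and 0.0756 for intron 2.

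The other 44 listed bins were parts of exons, 14 used more and 30 used less in prmt5-5. They comprise 20 alternative 5' splice sites, 7 alternative 3' splice sites, 12 skipped exons and 5 bins without an annotated event. Those with the largest changes were chosen after their values were seen. An exon of AT5G05550 was included in 9.24% of junction reads in prmt5-5 and in 78.1% in WT, from the authors' deposited table. An alternative 5' splice site of the vacuolar ATPase subunit gene VAB2 stood at 39.2% in prmt5-5 and 84.1% in WT, per the authors' deposited table, and one of TAF6B, a subunit gene of a general transcription factor, at 47.3% and 89.2%. Higher use was found at alternative 5' splice sites of AT5G40500 (85.0% in prmt5-5 and 36.8% in WT) and of the AMP deaminase gene FAC1 (77.1% and 36.3%) in the authors' deposited table.

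Expression was listed as changed in prmt5-5 for 1531 genes, or 9.14% of the 16747 tested, with 836 higher (4.99%) and 695 lower (4.15%). The deposited description states an adjusted p below 0.05 and no limit on the change, but no listed gene changed by less than 1.49-fold. Over the genes past that size the median change was 1.75-fold for rises and 1.71-fold for falls in the authors' deposited table, and 427 genes changed at least 2-fold, 247 higher and 180 lower. Protein-coding loci made up 1464 of the listed genes and the 58 other annotated loci included 12 long noncoding RNAs and 5 microRNA genes. Of 29 markers of leaf, root, root hair, flower, seed, phloem, guard cell and trichome, 2 were listed, LHCB1.1 (RefSeq symbol CAB2, log2 change 0.97) and the guard cell gene MYB60 (1.07), both higher in prmt5-5 in the authors' deposited table. In whole seedlings, fewer cells of a type and less RNA per cell cannot be told apart. Listed genes were spread over the chromosomes at 4.73% to 5.71% of protein-coding loci, with 6.43% (35 of 544) within 1 Mb of PRMT5.

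Of the annotated protein-coding loci, 5.31% were listed, 2.95% higher and 2.36% lower, and the gene families below are read against those shares. Counting both directions, listed shares near 5.31% were found for protein kinases (5.58%), homeobox (5.71%), AP2 and ERF (5.10%) and calcium-binding genes (6.12%). Cyclin-related genes (6.25%), MYB genes (6.43%) and chromatin modifiers (6.56%) were also near it. Over all listed genes, 25.1% held a more retained intron, 42.1% of those higher and 4.75% of those lower. Intron-holding members have a median of 2 annotated introns in the photosystem family and 9 among RNA helicases, against 4 over all. The part of intron number in the family counts of retained introns was not tested. Genes that were not listed have no value in the deposited table, so no median over all members can be given, and members too low to be tested count as not listed. Family members were found by words of the symbol or product in the RefSeq annotation. A family may therefore hold genes of another function or miss genes annotated in other words, and families can overlap. Of the genes named here with their values, ADAP, AT1G56300, AT2G40010, AT3G22570, AT3G46650, AT3G55900, AT3G58720, AT5G05550, CT-BMY, CYP71A13, NEK2, RR3, SAUR63 and VPS25 overlap another annotated gene on the opposite strand by at least 200 bases, and AT1G35516, HEMG2 and RABA6b one on the same strand. Without a stated strand setting the reads of such pairs cannot be separated.

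**Figure D4:**
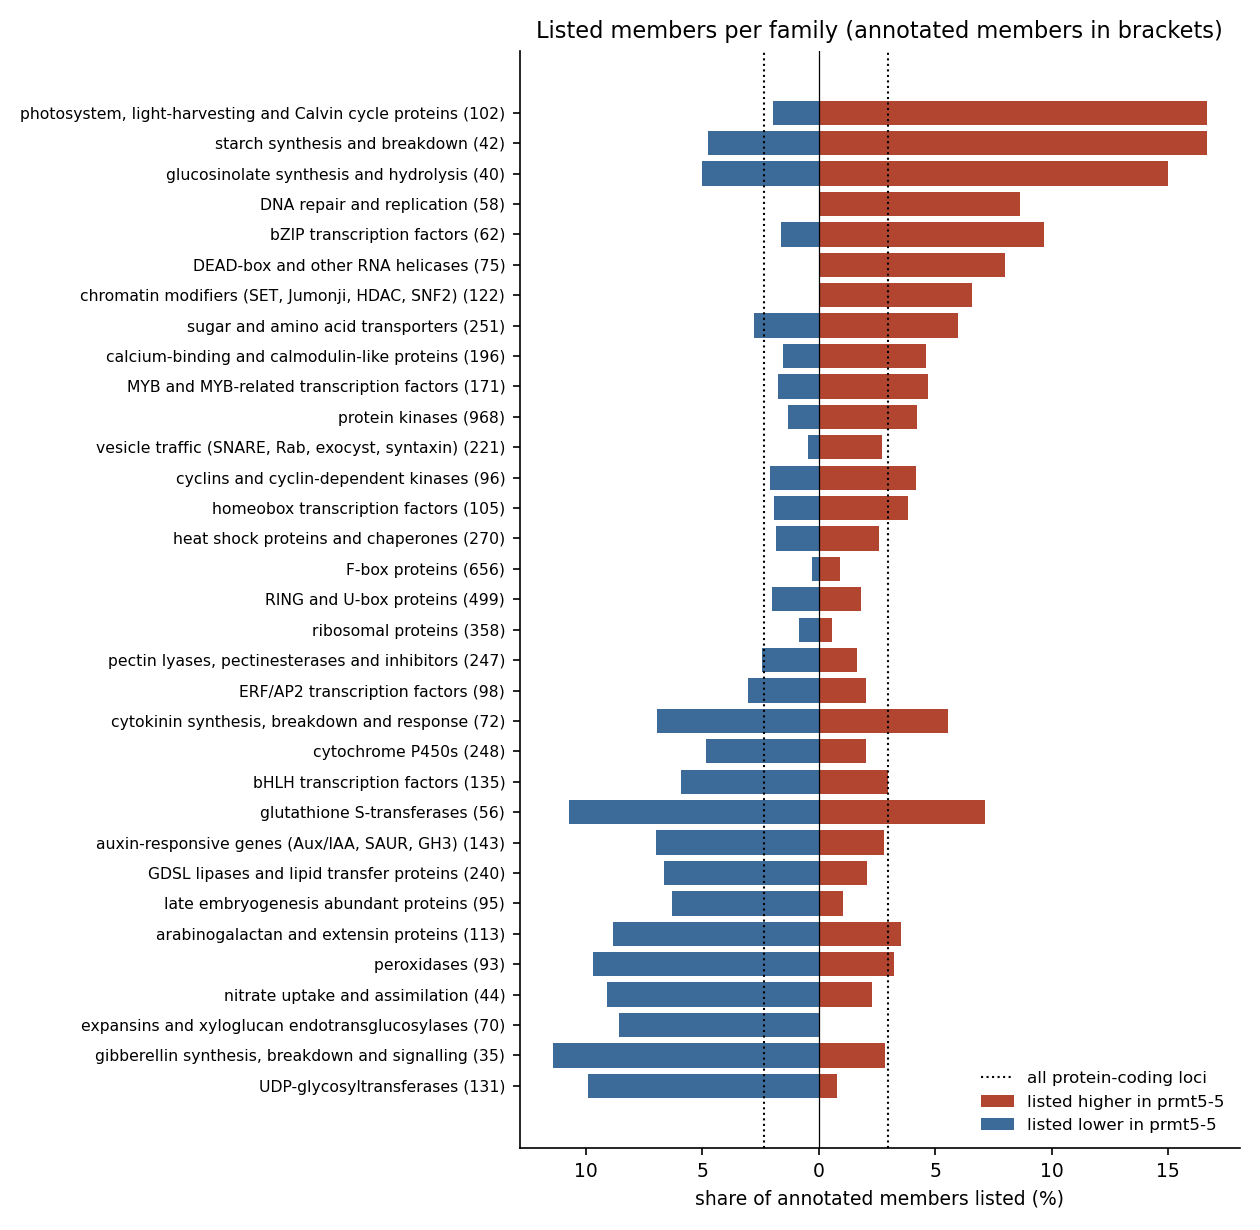
Bars give the share of annotated members listed higher (red, right) or lower (blue, left) in prmt5-5, in percent, for each family with at least 5 listed members. Dotted lines mark the shares over all protein-coding loci, 2.95% higher and 2.36% lower, and families run downward by the excess of higher over lower.

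Genes of photosynthetic light capture were listed mostly as higher in prmt5-5. Of 102 photosystem, light-harvesting and Calvin cycle genes, 17 rose and 2 fell. The light-harvesting genes LHCB2.2 and LHCB2.1, whose proteins bind chlorophyll at photosystem II, rose by 2.40 and 1.91 on the log2 scale in the authors' deposited table (adjusted p = 7.75e-66 and 2.26e-34). The LHCB2 genes and the CAB genes are near-identical copies, so the authors' counting may have split reads between them. The 2 falls were ELIP1, an early light-induced protein gene, at -0.61 and the photosystem II assembly gene LPA19 at -0.60 in the authors' deposited table. None of the 19 listed members held a more retained intron. PORB, an enzyme of chlorophyll synthesis named after its value was seen, rose by 1.01 in the authors' deposited table.

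Of 42 genes of starch synthesis and breakdown, 7 rose and 2 fell, and 5 of these 9 held a more retained intron. BMY2, annotated as a beta-amylase, rose by 1.15 and the disproportionating enzyme gene DPE1 by 0.81, while the amylase genes AMY2 and CT-BMY had -0.89 and -0.71 in the authors' deposited table. Retention reached 13 of the 42 starch genes (31.0%, against 11.5% of all intron-holding protein-coding loci), and these genes have a median of 13 annotated introns against 4 over all. Of 40 glucosinolate genes, which make or cleave the sulfur-rich defence compounds of the cabbage family, 6 rose and 2 fell. IMS2, of the methylthioalkylmalate synthase family, rose by 1.39 and the P450 gene CYP79F2 by 1.21, both of synthesis, while the nitrile specifier genes NSP1 and NSP4, of hydrolysis, had -0.68 and -0.65 in the authors' deposited table. Among 251 sugar, amino acid and major facilitator transporter genes 15 rose and 7 fell, with AT1G08890 at 1.55 and AT1G22570 at 1.13, and the major facilitator gene AT3G21670 at -1.83 and the sugar transporter gene SWEET2 at -1.14 in the authors' deposited table.

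The 6 listed genes among 75 RNA helicases all rose, and all 6 hold a more retained intron, led by UAP56a (0.96), a helicase gene of splicing and mRNA export, and AT3G06480 (0.78) in the authors' deposited table. All 8 listed chromatin modifier genes of 122 (6.56%, against 5.31% of all protein-coding loci listed in either direction) rose as well. They include SDG25, which methylates histones, at 1.38 and SWN, a Polycomb methyltransferase gene, at 1.22 in the authors' deposited table. All 5 listed of 58 DNA repair and replication genes rose, with the polymerase gene AT4G32700 at 0.93 and RAD4 at 0.81 in the authors' deposited table, and none of the 5 holds a more retained intron. Other families of nucleic acid proteins differed. The 2 listed of 47 histone genes fell, AT3G53650 (-0.90) and HIS1-3 (-0.89), and of 144 RNA-binding genes of the RRM type 3 rose and 1 fell, between AT5G41690 (1.35) and AT4G13860 (-0.80), in the authors' deposited table. These 4 were named after their values were seen. No member of 9 protein arginine methyltransferase genes, 11 Sm and LSm genes and 6 genes of nonsense-mediated decay or the exon junction was listed for expression. Retained introns were listed in 2 arginine methyltransferase genes, PRMT5 and PRMT6, and in the LSm genes LSM1A and LSM1B, which take part in mRNA decapping. The genes with a retained intron are named because they are few, after their values were seen. PRMT6 intron 6 of 12 was at 11.8% in prmt5-5 and 0% in WT by the authors' deposited table. LSM1B intron 2 had 11.2% in prmt5-5 and 2.54% in WT, and LSM1A intron 1 had 8.17% in prmt5-5 and 0% in WT, again in the authors' deposited table.

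Of 968 protein kinase genes, 41 were higher and 13 lower. AT2G25760 (2.26) and AT2G25220 (2.01) rose furthest, and the wall-associated kinase gene AT1G69730 (-1.31) and MAPKKK17 (-1.01) fell furthest in the authors' deposited table. Of the 54 listed kinases 25 hold a more retained intron. Over the family 13.9% of the intron-holding members do, against 11.5% of all intron-holding protein-coding loci. Calcium-binding and calmodulin-related genes had 9 higher and 3 lower of 196, with NTMC2T6.1 (1.16) and EICBP.B (0.97), a calmodulin-binding transcription activator, up and the EF-hand gene AT2G41090 (-1.84) and the kinase gene CRCK1 (-0.70) down in the authors' deposited table. Vesicle traffic genes had 6 higher and 1 lower of 221, the Rab GTPase gene RABG3B at 1.40, AT3G09800 at 1.18 and RABA6b at -1.15 in the authors' deposited table, and 5 of these 7 hold a more retained intron. Among 96 genes of cyclins, cyclin-dependent kinases and their inhibitors, the inhibitor gene ICK1 (0.82) and CYCB2;3 (0.65) rose and CYCP2;1 (-1.13) and AT1G08180 (-0.66) fell in the authors' deposited table, with 4 higher and 2 lower in all.

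All 6 listed of 70 expansin and xyloglucan endotransglucosylase genes, whose products loosen and remodel the wall, fell, with XTH18 at -0.96 and XTH17 at -0.85 in the authors' deposited table. Arabinogalactan and extensin genes had 4 higher and 10 lower of 113, with EXT6 (0.89) and AT2G16630 (0.83) up and AT3G16670 (-1.70) and AT1G26240 (-1.20) down in the authors' deposited table. UDP-glycosyltransferase genes, many of which attach sugars to small molecules and hormones, had 1 higher and 13 lower of 131. AT2G22590 was 5.83-fold lower (log2 change -2.54, adjusted p = 5.45e-59) and AT3G46650 had -1.39 in the authors' deposited table. LEW3, included by its product name alone, had 1.03 there. Lipid transfer and GDSL lipase genes had 5 higher and 16 lower of 240, with AT4G12500 (1.43) and its cluster neighbour EARLI1 (1.38) up and AT4G22610 (-2.30) and AT3G22570 (-1.33) down in the authors' deposited table. Peroxidase genes had 3 higher and 9 lower of 93, between APX5 (0.94) and AT4G17960 (0.91) and AT5G64120 and AT2G41480 (-1.15 each) in the authors' deposited table. Cytochrome P450 genes had 5 higher and 12 lower of 248, with CYP79F2 (1.21) and CYP72A13 (1.19) up and the camalexin gene CYP71A13 (-1.42) and CYP705A5 (-1.32) down in the authors' deposited table.

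Glutathione S-transferase genes had 4 higher and 6 lower of 56, with GSTF14 (1.77) and GSTF12 (1.57), a gene of anthocyanin transport, up and ERD9 (-1.31) and GSTU5 (-0.84) down in the authors' deposited table. Late embryogenesis abundant genes had 1 higher and 6 lower of 95, AT3G19430 at 0.64 with M17 at -2.72 and YLS9 at -1.90 in the authors' deposited table. YLS9, annotated as a hydroxyproline-rich glycoprotein, was included by its product name alone. Heat shock and chaperone genes had 7 higher and 5 lower of 270, with AT3G12170 (1.61) and AT1G56300 (0.83) up and HSP70 (-0.96) and HSFB2A (-0.93) down in the authors' deposited table. Pectin-related genes had 4 higher and 6 lower of 247, between AT3G15720 (0.85) and AT4G25250 (-0.95) in the authors' deposited table. Ribosomal protein genes had 2 higher and 3 lower of 358, between AT1G54217 (0.91) and AT2G40010 (-0.98), F-box genes 6 higher and 2 lower of 656, between AT4G09920 (1.17) and AT3G55900 (-0.79), and RING and U-box genes 9 higher and 10 lower of 499, between AT3G58720 (1.84) and AT1G24580 (-2.29), all in the authors' deposited table.

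Of 35 gibberellin genes, 4 fell and 1 rose. The DELLA repressor genes RGL2 (-1.08) and RGL1 (-0.84) fell furthest, and AT5G14920 rose by 0.67 in the authors' deposited table. The 4 listed of 32 genes matched as jasmonate genes all fell, named here because they are few: LOX2 (-1.10), TIFY7, JAZ3 and LOX1 (-0.60 each) in the authors' deposited table. LOX1 was included by its symbol alone. Auxin-responsive genes had 4 higher and 10 lower of 143. All 10 that fell are SAUR genes, small auxin-induced genes of cell elongation, led by SAUR20 (-0.96) and SAUR63 (-0.92), and 3 of the 4 that rose are GH3 genes, which conjugate auxin, led by GH3.3 (1.28) and BRU6 (0.93), in the authors' deposited table. Many SAUR genes lie in tandem clusters of similar copies. Cytokinin genes had 4 higher and 5 lower of 72, with the activating enzyme gene LOG8 (1.1) and the histidine kinase gene HK1 (0.91) up and the cytokinin oxidase gene CKX4 (-1.43) and the response regulator gene RR3 (-0.77) down in the authors' deposited table. HK1 was included by its symbol alone. Of 44 nitrate uptake and assimilation genes, 4 fell and 1 rose. Among these matched genes the nitrate reductase gene NIA1 (-1.11) and the asparagine synthetase gene ASN2 (-1.01) fell furthest in the authors' deposited table. The transporter gene AT1G52190 rose by 0.76 there. The 3 listed aquaporin genes of 37, NIP6;1 (-0.93), PIP2A (-0.69) and GAMMA-TIP (-0.61), all fell in the authors' deposited table and are named because they are few.

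Transcription factor families were listed in both directions. MYB genes had 8 higher and 3 lower of 171, with MYB67 (2.06) and MYB31 (1.30) up and the flavonol regulator MYB12 (-1.30) and AT1G35516 (-0.77) down in the authors' deposited table. Basic helix-loop-helix genes had 4 higher and 8 lower of 135, with AT1G61660 (1.48) and AT4G28790 (1.44) up and AT4G29930 (-1.44) and HFR1 (-1.17), of light signalling, down in the authors' deposited table. The bZIP genes had 6 higher and 1 lower of 62, with TGA9 (2.64) and bZIP52 (0.84) up and HY5 (-0.69), which promotes development in light, down in the authors' deposited table. Homeobox genes had 4 higher and 2 lower of 105, with BLH8 (1.45) and HB17 (1.17) up and BLH6 (-0.65) and HB-12 (-0.64) down in the authors' deposited table. AP2 and ERF genes had 2 higher and 3 lower of 98, with DREB2C (1.18) and ADAP (0.65) up and AT2G22200 (-1.10) and AT2G44940 (-0.66) down in the authors' deposited table.

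Genes that were listed for expression and also held a more retained intron were mostly higher in prmt5-5. There were 385 such genes, 352 higher and 33 lower, which is 25.1% of the genes listed for expression and 15.0% of the genes with a more retained intron. Of the genes listed higher 42.1% held a more retained intron, and of the genes listed lower 4.75%. Both lists come from the same libraries, and whether reads inside introns entered a gene's level is not said by any source used here, so the levels may include the retained introns.

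The share listed higher stepped up with the size of the rise of retention. Among genes whose most changed intron rose by 5 to 10 points, 1.85% were listed higher and 2.07% lower, which is below the 4.99% and 4.15% over all genes tested. At 10 to 20 points 6.93% were higher and 0.853% lower, and at 20 to 40 points 30.7% were higher and 0.559% lower. At 40 points or more, 105 of 164 genes were higher (64.0%) and 3 were lower (1.83%). By number of introns, 11.8% of genes with 1 more retained intron were listed higher, 19.0% of those with 2 and 26.4% of those with 3 or more, while 1.36%, 1.13% and 0.80% were listed lower.

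**Figure D5:**
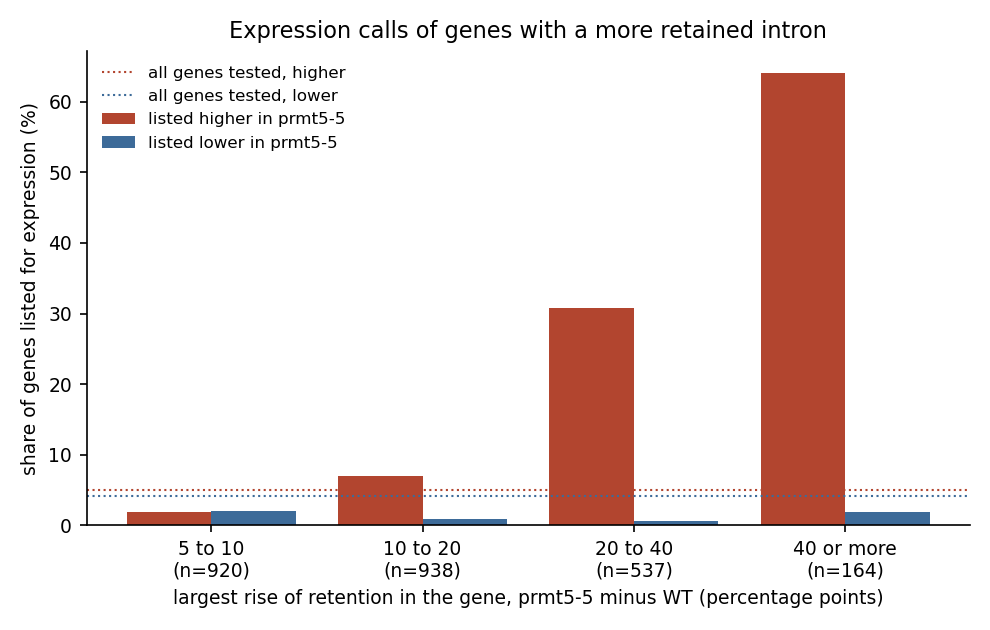
Bars give the share of genes listed higher (red) or lower (blue) for expression in prmt5-5, in percent, by the largest rise of retention in the gene, in percentage points of prmt5-5 over WT. The share listed higher was 64.0% at 40 points or more, above the 4.99% over all genes tested (red dotted line).

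The largest rises of expression among these genes were TGA9 (log2 change 2.64, adjusted p = 1.13e-121), AT1G12730, a subunit gene of GPI anchor attachment (2.51), AT2G25760 (2.26), the pre-mRNA processing gene PRP40B (2.09) and the protease gene AT2G25740 (1.95) in the authors' deposited table. PRP40B encodes a protein related to a U1-associated splicing factor of yeast, and its intron 9 of 27 was retained at 72.6% in prmt5-5 and 4.62% in WT, per the authors' deposited table. AT1G12730 held 3 listed introns, with intron 1 at 47.4% in prmt5-5 and 0% in WT by the authors' deposited table. AT2G25740 rose with a listed intron that reached 13.2% in prmt5-5 and 2.78% in WT, per the authors' deposited table, so a large change of expression also stood beside a small rise of retention. AT2G25740 and AT2G25760 lie close together on chromosome 2, and whether their rises are related was not tested.

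The largest falls among these genes were AT2G41090 (log2 change -1.84), AT1G76020 (-1.27), the cellulose synthase-like gene CSLB03 (-1.03), ASN2 (-1.01) and AT3G57020 (-0.93) in the authors' deposited table. AT1G76020 is among the 10 introns with the largest rise, and its transcript was 2.41-fold lower in prmt5-5 in the authors' deposited table. CSLB03 intron 7 was at 67.9% in prmt5-5 and 20% in WT by the authors' deposited table. In ASN2 and AT2G41090 the listed introns reached 9.37% and 7.42% in prmt5-5, against 0.198% and 0.799% in WT, per the authors' deposited table.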

How the data were processed

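Polyadenylated RNA of 4 prmt5-5 and 4 WT libraries was used. The submitters' processing notes name TopHat and the genome build TAIR10; the counting and testing programs are not given in the sources used here. The log2 fold changes (prmt5-5 over WT, base 2 taken because the smallest listed change, 0.58, is then 1.49-fold), the p-values with their adjusted p-values, and the retained or included fraction per genotype, pooled over libraries, were computed by the authors, per the file headers. Per the deposited description, genes were listed at an adjusted p below 0.05 and bins at an adjusted p below 0.15 with a fraction change above 0.05. Unlisted genes were unchanged, changed by less or were not tested. Since no counts per library were used, no count test was run and the design's calls were counted as deposited.

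Fractions were multiplied by 100. The number of genes and bins tested was recovered from the ratio of p to adjusted p, a step tested on simulated data. Introns, names and sequences came from the RefSeq annotation of TAIR10.1 (1522 of 1531 listed genes matched), where 99.8% of intron bins have the ends of an annotated intron. Listed bins were matched to introns of every annotated transcript. Introns used for comparison, and median numbers of annotated introns, are those of the first annotated transcript of each locus. Gene families were matched by words of the symbol or product, and products read as false matches were left out, a step added after the data were seen; other false matches may remain. Named genes are PRMT5, per family with at least 5 listed members the 2 largest rises and falls (1 of each for pectin, ribosomal, F-box and RING genes, to save space), the 10 genes with the most retained introns (ties by summed rise), the 10 largest rises and 5 largest falls of retention, and the 5 largest rises and falls of expression among genes with a more retained intron. Members and lists were chosen with earlier results of these data known. Python 3.11.15, numpy 2.4.6, pandas 2.3.3, scipy 1.17.1 and matplotlib 3.10.9 were used.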

Additional observations from a re-analysis of the deposited data

How the results depend on the processing

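With an absolute log2 change of at least 1, the genes listed for prmt5-5 numbered 427 in place of 1531, and those in any of the families 105 in place of 417. A change of the fraction of at least 0.1 left 2017 of the 3406 bins and 258 of the 567 genes with 2 or more retained introns. Of those 567 genes, 347 were left at a bin adjusted p below 0.01, and 125 held 3 or more. These counts are lower because each limit admits fewer features. The share listed higher among genes listed both ways, 91.4%, was 96.0% at a fraction change of at least 0.1. The share of retained introns without G at both splice site positions, 18.2%, was 21.3% at a bin adjusted p below 0.01 and 22.7% at a fraction change of at least 0.1. The other counts stayed within 1.5 times under the limits tried. The share with an in-frame stop, 91.1%, lay between 90.5% and 91.4% under those limits. Leaving out each replicate was not run, since it needs counts per library. No paired analysis was possible because the tables hold no values per library. Depth is unknown, and no spread between libraries can be given for any value.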
